A study of Mus musculus with 375 samples.

Results

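The genes described here are 10 that encode centromere proteins (CENPs): Cenpk, Cenph, Cenpi, Cenpm, Cenpn, Cenpp and Cenpq of the constitutive centromere network, the centromeric histone gene Cenpa, and Cenpe and Cenpf, whose products join the kinetochore in mitosis. They are 10 of the 23420 genes in the deposited table, and all 10 were measured. The genes were selected on their mean levels per set of cells under each diet, that is on the same HFD and control values given below, with Cenpk leading because it stood out between diets. The diet values of the 10 genes are therefore a description and carry no test, while differences between classes of cells, whose values the rule for members did not use, are tested. The members, lists and classes were themselves chosen with earlier results of these data known.

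The centromere is the stretch of chromosome on which the kinetochore is built, and its position is set by nucleosomes that hold CENP-A in place of histone H3. The constitutive network sits on this chromatin throughout the cell cycle and links it to the outer kinetochore, which assembles for mitosis and binds spindle microtubules. The crypts of the small intestine, where Lgr5+ stem cells divide throughout life, hold many cycling cells, so genes of this machinery are read out there in cells at different points of the cycle.

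Single Lgr5+ cells from the small intestine were sorted by flow cytometry and sequenced with Smart-seq2, a plate-based method that copies whole transcripts of 1 cell per well without marking the strand. The mice were fed a high-fat diet (HFD) or a control diet, and the cells form 4 sets named in the titles. The filter of 2000 genes above 0 TPM (transcript abundance scaled to a common total per cell) left 91 of 93 cells in HFD 1, 92 of 94 in HFD 2, 93 of 94 in control 1 and 91 of 94 in control 2, or 367 of 375 in all. The set is the replicate, with 2 per diet, and whether each set is a separate mouse is not stated, so a p-value measures no more than the spread between these sets, which may be technical. Strain, sex, age, the make-up and duration of the diets and the reporter behind the sort were not given in the sources used here.

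Lgr5 was at 1 TPM or more in 93.4% to 95.7% of cells of a set and the epithelial gene Epcam in 100%, whereas the leukocyte gene Ptprc was found in 1 cell. Rn45s, the precursor of ribosomal RNA, made up 26.9% and 18.6% of all TPM in the HFD sets against 39.1% and 24.6% in the control sets, so every other gene's TPM moves with that share. The median cell had 6857 and 6348.5 genes above 0 TPM in the HFD sets, and 6895 and 6130 in the control sets. Read depth cannot be had from TPM and is unknown here, so a gene at 0 may have been missed. No 2 cells held identical values.

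Promoter windows are shown for 8 of the genes: the 5 called higher in S than in neither cells below (Cenpk, with its 3 RefSeq starts, Cenph, Cenpi, Cenpm and Cenpn) and the histone and mitotic genes (Cenpa, Cenpe and Cenpf), whether or not they held a match. Each runs 5′ to 3′ on the gene's strand over 120 bases before and 30 after a RefSeq start in the build GRCm38.p6. Capitals mark matches, on either strand, to 3 kinds of letters. The cell cycle homology region (CHR) was searched as TTTGAA and, in its other form, as TTCGAA. The second kind was CCAAT, which stands reversed and complemented where it lies on the other strand. An E2F-type match was TTCCCGC or, with a changed middle, TTCGCGC. It could also be TTGCCGC or, as the last form searched, TTGGCGC.
Cenpk, RefSeq start 1 (chr13:104228491-104228640, plus strand): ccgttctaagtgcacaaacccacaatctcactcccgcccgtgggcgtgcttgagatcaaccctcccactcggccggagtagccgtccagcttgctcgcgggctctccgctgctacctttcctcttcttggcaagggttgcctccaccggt
Cenpk, RefSeq start 2 (chr13:104228846-104228995, plus strand): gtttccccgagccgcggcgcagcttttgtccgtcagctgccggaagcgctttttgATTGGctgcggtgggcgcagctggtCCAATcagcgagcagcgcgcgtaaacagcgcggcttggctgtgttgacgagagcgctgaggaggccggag
Cenpk, RefSeq start 3 (chr13:104229268-104229417, plus strand): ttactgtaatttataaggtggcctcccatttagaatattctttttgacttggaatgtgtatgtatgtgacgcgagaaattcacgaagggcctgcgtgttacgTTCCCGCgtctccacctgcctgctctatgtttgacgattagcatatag
Cenph (chr13:100775870-100776019, minus strand): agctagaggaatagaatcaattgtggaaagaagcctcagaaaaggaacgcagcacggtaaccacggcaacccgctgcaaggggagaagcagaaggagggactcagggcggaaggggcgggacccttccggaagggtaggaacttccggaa
Cenpi (chrX:134307964-134308113, plus strand): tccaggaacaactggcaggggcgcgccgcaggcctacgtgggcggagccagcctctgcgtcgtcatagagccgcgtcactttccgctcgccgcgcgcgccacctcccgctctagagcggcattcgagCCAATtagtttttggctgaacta
Cenpm (chr15:82244307-82244456, minus strand): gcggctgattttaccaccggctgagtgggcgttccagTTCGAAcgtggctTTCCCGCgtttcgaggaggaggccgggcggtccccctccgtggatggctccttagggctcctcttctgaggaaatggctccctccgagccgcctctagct
Cenpn (chr8:116921620-116921769, plus strand): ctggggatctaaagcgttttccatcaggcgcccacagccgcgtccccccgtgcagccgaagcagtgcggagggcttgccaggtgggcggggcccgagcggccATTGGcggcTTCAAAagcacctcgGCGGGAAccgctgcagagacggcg
Cenpa (chr5:30666766-30666915, plus strand): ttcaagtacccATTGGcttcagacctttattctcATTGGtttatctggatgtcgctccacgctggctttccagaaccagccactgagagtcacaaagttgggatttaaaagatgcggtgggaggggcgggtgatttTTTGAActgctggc
Cenpe (chr3:135212443-135212592, plus strand): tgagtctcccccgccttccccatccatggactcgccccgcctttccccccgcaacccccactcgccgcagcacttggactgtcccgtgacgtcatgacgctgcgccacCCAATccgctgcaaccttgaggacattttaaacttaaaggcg
Cenpf (chr1:189688057-189688206, minus strand): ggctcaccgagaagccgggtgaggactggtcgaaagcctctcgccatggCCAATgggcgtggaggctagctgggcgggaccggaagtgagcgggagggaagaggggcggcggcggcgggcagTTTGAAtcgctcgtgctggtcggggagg

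The windows of Cenpa and Cenpf each held the first CHR form just inside the transcribed part, 17 and 3 bases from the start, together with CCAAT upstream, with 2 matches in Cenpa and 1 in Cenpf. Cenpe held 1 CCAAT and neither CHR form. Cenpm held the second CHR form 83 bases and an E2F-type match 70 bases before its start, while Cenpn held a match of each of the 3 kinds within 18 bases of its start. Of 32851 windows of the same kind in the table, 9.07% held a CHR form, 24.0% CCAAT, 5.55% an E2F-type match and 2.25% both a CHR form and CCAAT. Of the 3 Cenpk starts, the first, at the annotated start of the gene, held no match, the second held CCAAT 65 and 40 bases upstream, and the third held 1 E2F-type match. Cenph held none, and Cenpi held 1 CCAAT. Of the genes not shown, Cenpp held no match and Cenpq held CCAAT 3 times. A match describes these letters only.

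Averaged over the 4 sets, Cenpa was the most abundant of the 10 genes with 56.4 ± 5.2 TPM (SD, n = 4 sets). Cenpp (26.0 ± 6.9), Cenpm (20.4 ± 5.4), Cenpk (18.9 ± 11.0) and Cenph (18.2 ± 2.1 TPM) followed, and neighbours in this order lay within the spread of the sets. Cenpq (9.48 ± 2.1), Cenpn (8.71 ± 2.2), Cenpe (7.08 ± 1.3), Cenpi (7.08 ± 1.4) and Cenpf (6.62 ± 1.6 TPM) formed a lower tier in which no neighbours were farther apart than that spread. Cenpk had the widest spread of all, and its sets divided by diet. Transcripts were patchy between cells: the share of all cells at 1 TPM or more ran between 21.3% for Cenpn and 47.4% for Cenpa.

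Cenpk encodes a subunit that works with CENP-H, CENP-I and CENP-M in 1 subcomplex of the constitutive network, and it was the gene with the clearest diet difference. Its mean level was 29.6 and 27.1 TPM in the HFD sets, against 11.1 and 7.88 TPM in the control sets. Both HFD sets lay well above both control sets, a pattern that 29.5% of the 11667 tested genes also showed. On the log2(mean TPM + 1) scale the HFD minus control difference was 1.5 (SE 0.30), the 71st highest of all tested genes, with a median of 0.13 over all genes.

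Part of this difference was in how many cells held the transcript and part in how much they held. Cenpk was at 1 TPM or more in 57.1% (95% Clopper-Pearson interval 46.3 to 67.5%) and 52.2% (41.5 to 62.7%) of cells in the HFD sets, against 37.6% (27.8 to 48.3%) and 37.4% (27.4 to 48.1%) in the control sets. The intervals cover counting error over cells only. Among the cells that held it, the mean was 51.8 and 51.9 TPM in the HFD sets, against 29.4 and 21.1 TPM in the control sets. The median over all cells of a set was 6.89 and 3.73 TPM in HFD 1 and HFD 2, against 0 in both control sets.

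The other members of that subcomplex were closer between diets. Cenph had 19.7 and 19.4 TPM in the HFD sets, against 15.1 and 18.8 TPM in the control sets. Cenpi had 9.15 and 6.50 TPM in the HFD sets, against 6.79 and 5.87 TPM in the control sets. Cenpm had 22.7 and 23.7 TPM in the HFD sets, against 12.2 and 22.8 TPM in the control sets. For Cenph the diets did not overlap but lay within 1 TPM at the nearest sets, for Cenpi they overlapped, and for Cenpm only control 1 stood apart. The log2 differences were 0.20 (SE 0.29) for Cenph, 0.25 (SE 0.36) for Cenpi and 0.45 (SE 0.31) for Cenpm.

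Cenpn, whose product binds CENP-A nucleosomes together with CENP-L, had 7.95 and 10.8 TPM in the HFD sets, against 6.02 and 10.03 TPM in the control sets. Cenpp, of the subcomplex that CENP-P and CENP-Q form with CENP-O, CENP-U and CENP-R, had 26.2 and 29.4 TPM in the HFD sets, against 16.3 and 32.1 TPM in the control sets. Cenpq had 10.4 and 8.72 TPM in the HFD sets, against 6.95 and 11.8 TPM in the control sets. For these genes control 1 was the lowest set and the diets overlapped, with log2 differences of 0.23, 0.27 and 0.06 (SE 0.35, 0.30 and 0.35).

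The histone gene and the mitotic genes also overlapped between diets. Cenpa had 60.8 and 50.9 TPM in the HFD sets, against 52.9 and 60.9 TPM in the control sets. Cenpe, a kinesin motor that moves chromosomes along microtubules, had 8.47 and 7.27 TPM in the HFD sets, against 5.24 and 7.35 TPM in the control sets. Cenpf, a large coiled-coil protein of the fibrous corona, had 8.002 and 4.88 TPM in the HFD sets, against 5.57 and 8.02 TPM in the control sets. The log2 differences were -0.03 (SE 0.25) for Cenpa, 0.29 (SE 0.36) for Cenpe and -0.08 (SE 0.38) for Cenpf.

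**Figure D1:**
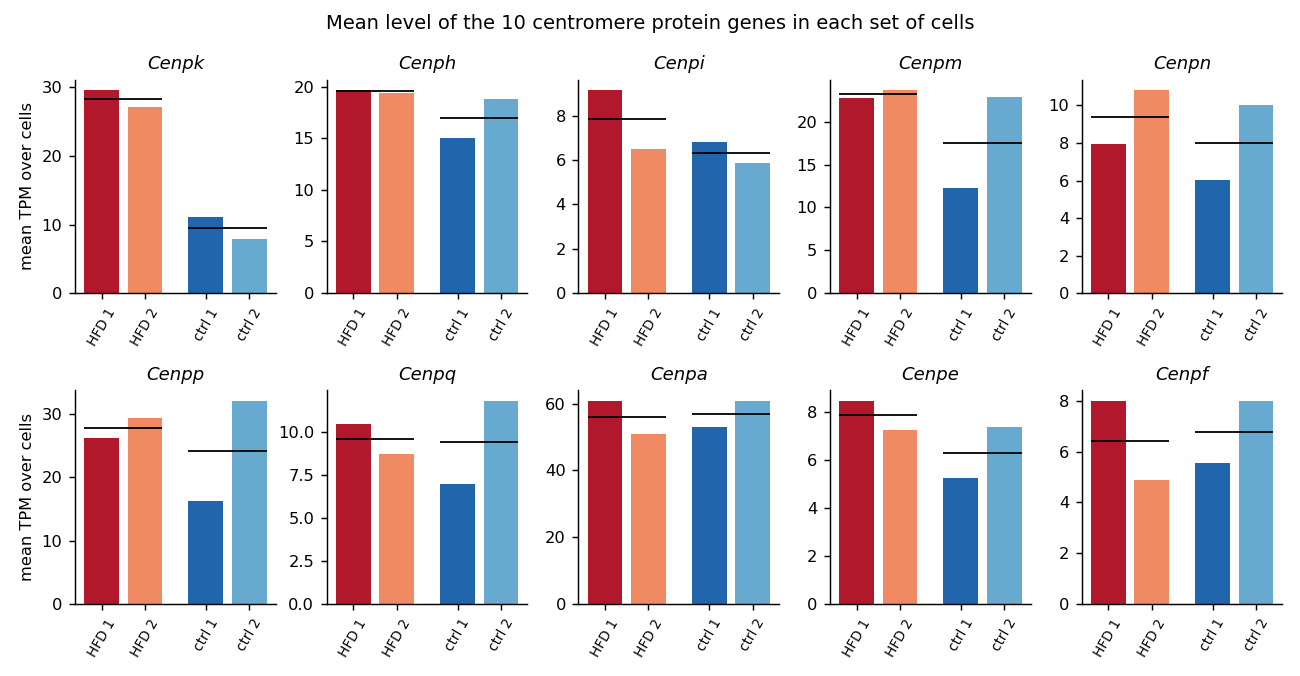
Mean TPM over the passing cells of each set (y axis, a separate scale per gene) for the 10 genes, as bars, with the HFD sets in red and the control sets in blue; black lines are the mean of the 2 sets of a diet. Cenpk stands at 29.6 and 27.1 TPM in the HFD sets and at 11.1 and 7.88 TPM in the control sets, while the bars of the other genes overlap between diets or, for Cenph, nearly meet.

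In limma's test over all genes (Benjamini-Hochberg adjusted p under 0.05) Cenpk was the 1 member called, where 59 genes (0.506%) were called in all, 43 of them higher. Because the contrast chose the gene, the call is a description and nothing is read from it. It was lost in the fit without HFD 1 (1.44) and once Rn45s was dropped from each cell's total (1.36), although the difference stayed between 1.27 and 1.72 in every alternative fit. Leaving Rn45s out moved the median of all genes to -0.05, and median-ratio scaling moved it to 0.00, where 25 of 42 calls were higher; Cenpk's difference was 1.38 on that scale. None of 43 other centromere and kinetochore genes was called between diets by limma, and 3 had an unadjusted p under 0.05, where 1294 of all 11667 genes had one, so the 3 do not set the list apart: Mad2l1 (0.59, SE 0.26), a spindle checkpoint protein, Stra13 (0.55, SE 0.25), which encodes CENP-X, and Spc24 (0.51, SE 0.24) of the NDC80 complex. The median log2 difference of these 43 genes was 0.24, against 0.13 for all genes.

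The network genes and the mitotic genes were set against each other as the mean log2 level of the 7 network genes less that of Cenpe and Cenpf. This was 0.89 and 1.27 in the HFD sets, against 0.78 and 0.74 in the control sets, a difference of 0.32 with a spread between sets of 0.19 (pooled SD). With Cenpk left out of the network it was 0.14 with a spread of 0.20, so the difference was then smaller than that spread. The order of the sets was then mixed, with 0.75 and 1.14 in the HFD sets against 0.76 and 0.86 in the control sets.

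Some other measures moved with diet beside Cenpk, and others overlapped between diets. The mean S phase score of a cell, built from 42 S phase genes which include none of the centromere and kinetochore genes described here, was 0.27 and 0.40 in the HFD sets, against -0.31 and -0.35 in the control sets. None of these 42 genes was called in limma's test, 21 were higher and 0 lower at an unadjusted p under 0.05 (1294 of 11667 genes in all, in either direction), and their median log2 difference was 0.55, against 0.13 for all genes. The G2/M score, from 44 genes chosen in the same way, overlapped between diets, with 0.18 and -0.03 in the HFD sets, against -0.20 and 0.05 in the control sets. There were 23 and 16 cells in which at least 3 of 8 Paneth or 3 of 8 goblet markers reached 10 TPM in the HFD sets, against 9 and 7 in the control sets. The summed level of the Paneth list was 4866 and 484 TPM in the HFD sets, against 69.4 and 33.6 TPM in the control sets, and that of the goblet list was 627 and 538 TPM in the HFD sets, against 501 and 75.7 TPM in the control sets. The summed level of 8 enterocyte markers was 1218 and 1382 TPM in the HFD sets, against 648 and 782 TPM in the control sets. That of 7 stem cell markers was 10207 and 12622 TPM in the HFD sets, against 7758 and 9996 TPM in the control sets. The mean score of the same 7 markers overlapped between diets, with 6.61 and 6.46 in the HFD sets against 6.69 and 6.39 in the control sets. Most of the stem cell sum was Olfm4, with 9352 and 11770 TPM against 6947 and 9267 TPM. Of the other stem cell markers, Lgr5 overlapped between diets (136 and 133 against 165 and 119 TPM). Ascl2 did not, with 91.2 and 105 TPM in the HFD sets against 80.3 and 73.0 TPM in the control sets. Without the cells holding Paneth or goblet markers Cenpk's difference was 1.55. The part of the S phase scores, of the enterocyte and stem cell markers and of Rn45s in Cenpk's difference was not tested beyond the values within classes and without Rn45s given here.

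Each cell was therefore placed in a class by its phase scores, each score being the mean gene-centred log2(TPM + 1) of the list less that of all tested genes in the cell. A cell with no score above 0 went to the neither class and the others to the class of the larger score. This gave 100 G2/M, 128 S and 139 neither cells, 15 of them within 0.1 of a boundary. The classes are ranges of a score, not cell types. They were cut from transcripts of the same cells, so a gene that moves with the score genes differs between classes partly by how they were cut. The p-values of class differences do not take this into account. The G2/M class held 29.7% and 21.7% of cells in the HFD sets, against 26.9% and 30.8% in the control sets. The S class held 44.0% and 42.4% in the HFD sets, against 26.9% and 26.4% in the control sets. More genes were detected in the G2/M and S classes, with medians of 7181.5 and 6839.5, than in the neither class, with 5811, and the part of this in the class differences was not tested.

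Within each class Cenpk was again higher in both HFD sets than in both control sets. Over all cells 29.5% of tested genes showed this pattern. The share of all genes that showed it within a class was not counted, so such orders are a description. In the S class it averaged 42.0 and 38.9 TPM in the HFD sets, against 18.3 and 10.1 TPM in the control sets. In the G2/M class it averaged 33.7 and 43.8 TPM in the HFD sets, against 19.5 and 15.2 TPM in the control sets. In the neither class it was low under both diets, with 4.53 and 2.98 TPM in the HFD sets, against 1.95 and 1.23 TPM in the control sets. The log2 differences were 1.5 in S, 1.11 in G2/M and 0.87 in neither cells, and weighting the classes equally gave 1.27 (SE 0.29), which was not called. That weighting was chosen after seeing the data.

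The share of cells with Cenpk behaved differently by class. In the G2/M class 85.2% and 90.0% of cells held it in the HFD sets, against 56.0% and 53.6% in the control sets. In the S class the shares lay close, with 65.0% and 64.1% in the HFD sets against 56.0% and 62.5% in the control sets. Neither the shares nor the mean levels overlapped there, and the mean levels lay farther apart. No other network gene was higher in both HFD sets in all 3 classes. Cenpm was higher in both in the G2/M class, with 34.7 and 40.3 TPM against 31.8 and 33.0 TPM in the control sets. In the S class Cenpi (11.4 and 8.10 TPM in the HFD sets, 6.56 and 2.99 TPM in the control sets) and Cenpm were higher in both HFD sets, and so were Cenpa, Cenpe and Cenpf, but in the G2/M class Cenpi was lower in both HFD sets, with 13.96 and 14.07 TPM, than in the control sets, with 16.5 and 16.4 TPM. Cenpa averaged 9.52 and 12.6 TPM in S class cells of the HFD sets, against 5.77 and 3.04 TPM in the control sets. In the neither class Cenpa, Cenpe and Cenpf were also higher in both HFD sets, while Cenpi and Cenpq were lower in both. These orders rest on few cells. Cenpi was held there by 0 of 24 and 0 of 33 cells in the HFD sets, against 1 of 43 and 1 of 39 in the control sets. Cenpq was held by 2 of 24 and 5 of 33 cells in the HFD sets, against 10 of 43 and 5 of 39 in the control sets. In the S class the network minus mitotic contrast was lower in the HFD sets, 2.13 and 2.30, than in the control sets, 2.50 and 2.71, the opposite order to that over all cells. In the neither class it was -0.24 and 0.36 in the HFD sets against 0.64 and 1.01 in the control sets, and in the G2/M class 0.29 and 0.61 against 0.26 and 0.18.

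**Figure D2:**
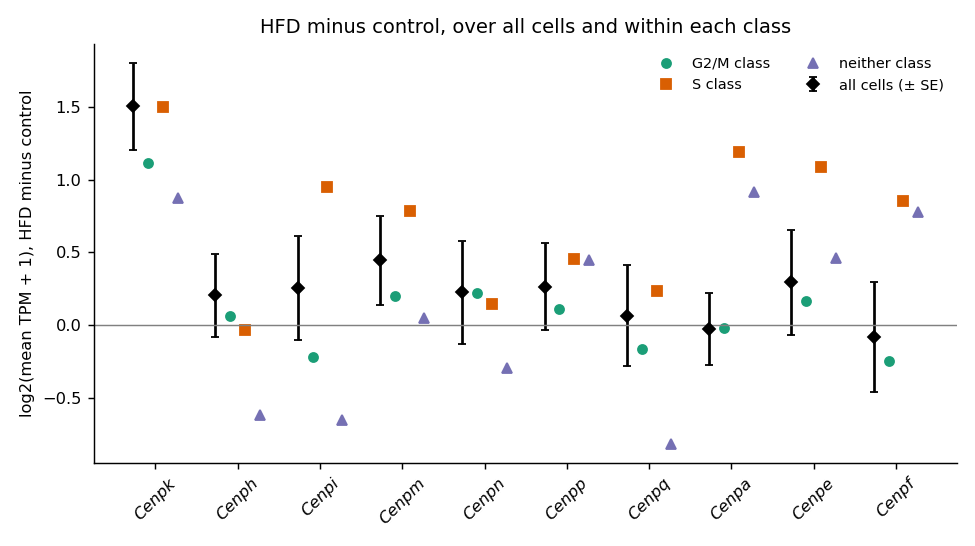
HFD minus control difference in log2(mean TPM + 1) (y axis) for each of the 10 genes, over all cells (black diamonds, ± SE from limma) and within the G2/M, S and neither classes (coloured points, mean of 2 HFD sets less mean of 2 control sets, no error drawn). Cenpk is the gene with all 4 points above 0.8, at 1.5 over all cells and at 1.11, 1.5 and 0.87 within the classes.

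In G2/M against S cells, with set as a block, Cenpa, Cenpf and Cenpe rose. Cenpa averaged 179, 176, 177 and 184 TPM in G2/M cells of HFD 1, HFD 2, control 1 and control 2, against 9.52, 12.6, 5.77 and 3.04 TPM in their S cells. All 4 G2/M values were far above all 4 S values. The log2 difference was 4.51 (SE 0.27, limma adjusted p = 1.15e-06), higher in 4 of 4 sets. Cenpf averaged 18.9, 14.7, 17.7 and 22.7 TPM in G2/M cells, against 1.88, 2.24, 0.70 and 0.69 TPM in S cells of the same sets, a difference of 3.08 (SE 0.37, limma adjusted p = 0.000358). Cenpe averaged 19.5, 22.7, 16.5 and 20.9 TPM in G2/M cells, against 5.30, 3.69, 1.37 and 1.76 TPM in S cells, a difference of 2.48 (SE 0.33, limma adjusted p = 0.000768). Neither gene's classes overlapped.

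Of the 7 network genes, Cenpp alone was called in that comparison on set means, but with logs taken per cell Cenpi (1.09, limma adjusted p = 0.00112), Cenpm (1.45, 0.00403) and Cenpn (1.48, 3.19e-05) were called as well. It averaged 40.7, 68.1, 35.9 and 66.1 TPM in G2/M cells, against 18.5, 27.0, 13.6 and 18.9 TPM in S cells of HFD 1, HFD 2, control 1 and control 2. The classes did not overlap, and the log2 difference was 1.37 (SE 0.29, limma adjusted p = 0.0204). The call of Cenpp was lost without HFD 2 (1.39, limma adjusted p = 0.07), control 1 (1.38, 0.113) or control 2 (1.25, 0.142). It was also lost with no filter on low genes (0.126), with no block (0.057) and with scores from which the mean of all tested genes was not taken (0.0636). Cenpk averaged 28.1 ± 13.1 TPM in G2/M cells and 27.3 ± 15.6 TPM in S cells (SD, n = 4 sets each), a log2 difference of 0.12 (SE 0.26) that lay within its error. Cenph differed by 0.44 (SE 0.41), Cenpi by 1.08 (SE 0.39), Cenpm by 0.75 (SE 0.31), Cenpn by 1.31 (SE 0.40) and Cenpq by -0.18 (SE 0.40), with limma adjusted p between 0.0985 and 0.889. Over all 11596 genes tested 1.83% were called higher and 1.66% lower in G2/M cells, against 4 and 0 of the 10 members, of which 7 and 0 had an unadjusted p under 0.05. The total of 404 calls fell to between 130 and 216 when any 1 set was left out. The calls of Cenpa, Cenpe and Cenpf held in all 12 alternative fits.

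In S against neither cells 5 network genes rose and the histone and mitotic genes were not called. Cenpk averaged 42.0, 38.9, 18.3 and 10.1 TPM in S cells, against 4.53, 2.98, 1.95 and 1.23 TPM in neither cells of the same sets. The values did not overlap, and the log2 difference was 2.83 (SE 0.26, limma adjusted p = 1.48e-05). Cenph averaged 26.0, 20.4, 24.5 and 22.6 TPM in S cells, against 0, 6.77, 2.64 and 3.997 TPM in neither cells, a difference of 2.81 (SE 0.41, limma adjusted p = 0.000928). Cenpi (2.61, SE 0.39), Cenpn (2.32, SE 0.40) and Cenpm (1.5, SE 0.31) rose as well, with adjusted p of 0.00109, 0.00269 and 0.00983. The call of Cenpm was lost without HFD 1 (adjusted p = 0.0866) or HFD 2 (0.104).

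Cenpq (1.27, SE 0.40, limma adjusted p = 0.0877) and Cenpp (0.61, SE 0.29, 0.27) missed the threshold in that comparison, and both were called with logs taken per cell (adjusted p of 0.0102 and 0.0222). Cenpe differed by 0.67 (SE 0.33). Cenpa and Cenpf had values below 0, -0.68 (SE 0.27) and -0.62 (SE 0.37), which were not called, with Cenpa lower in S than in neither cells in 4 of 4 sets. Over all tested genes 4.77% were called higher and 1.02% lower in S cells, against 5 and 0 of the members, of which 6 and 1 had an unadjusted p under 0.05. The total of 671 calls lay between 337 and 405 without any 1 set.

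In G2/M against neither cells all members but Cenpq rose, where 7.0% of genes were called higher and 3.37% lower. The log2 differences were 3.83 (SE 0.27) for Cenpa, 3.69 (SE 0.39) for Cenpi, 3.63 (SE 0.40) for Cenpn, 3.26 (SE 0.41) for Cenph, 3.14 (SE 0.33) for Cenpe and 2.95 (SE 0.26) for Cenpk. Cenpf (2.46, SE 0.37), Cenpm (2.25, SE 0.31) and Cenpp (1.99, SE 0.29) followed, and the limma adjusted p of these 9 genes ran between 4.33e-07 and 0.00051. Cenpq, at 1.08 (SE 0.40, adjusted p = 0.112), was above 0 in 4 of 4 sets and was not called, but was with logs taken per cell (adjusted p = 0.00582). These 3 contrasts share their class means, so their values stand side by side and are not independent.

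**Figure D3:**
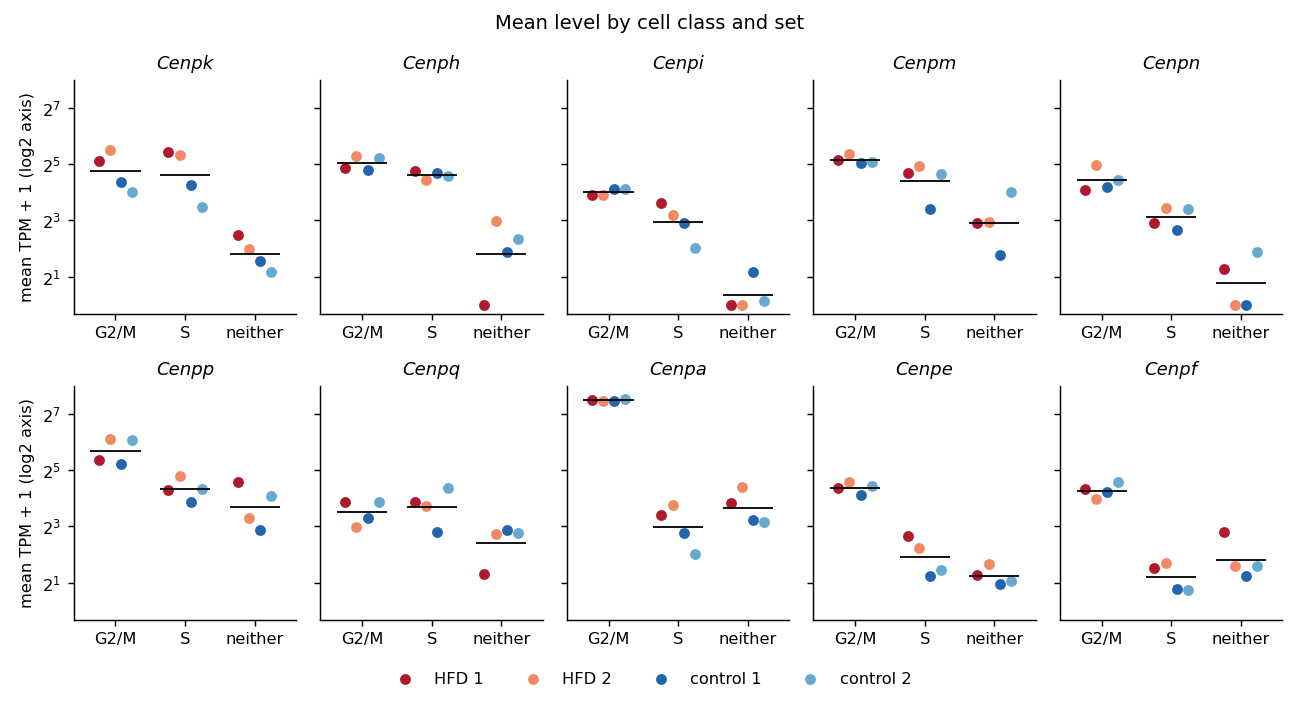
Mean TPM + 1 on a log2 axis in the G2/M, S and neither classes of each set (points; red HFD, blue control), with the mean over sets on the log scale as a black line. Cenpa, Cenpe and Cenpf are far higher in G2/M cells than in S cells, while Cenpk and Cenph are at 10.1 TPM or more in both G2/M and S cells of each set and at 6.77 TPM or less in neither cells, and Cenpi in S cells, at 2.99 to 11.4 TPM, lies between its other classes.

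**Figure D4:**
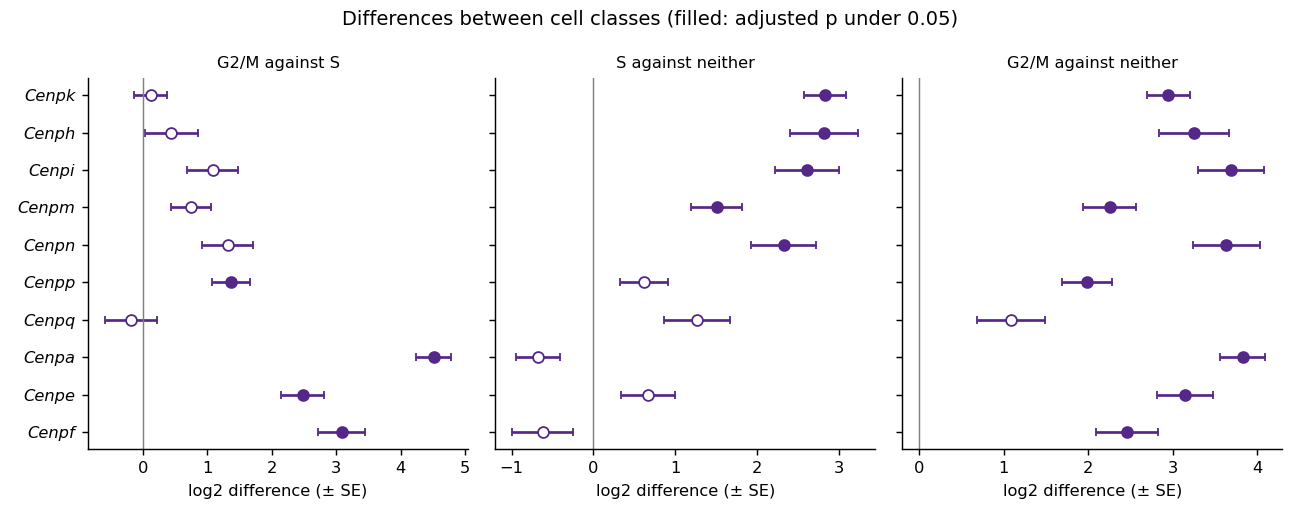
Log2 difference between classes (x axis, ± SE) from limma with set as a block; filled points have an adjusted p under 0.05. Cenpa, Cenpe, Cenpf and Cenpp are filled for G2/M against S, Cenpk, Cenph, Cenpi, Cenpm and Cenpn for S against neither, and all but Cenpq for G2/M against neither.

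The rest of the kinetochore gave the background to these patterns. Over all tested genes 1.83% were called higher and 1.66% lower in G2/M against S cells. Of 13 outer kinetochore genes 10 rose in G2/M against S cells (median log2 difference 1.36, all genes -0.01), among them Nuf2 (2.33, SE 0.31) and Ndc80 (2.11, SE 0.28), the microtubule-binding pair of the NDC80 complex. Of 12 checkpoint and corona genes 6 rose, led in size by the checkpoint kinase gene Bub1 (2.68, SE 0.36). All 4 genes of the chromosomal passenger complex, which corrects faulty attachments, rose, with Birc5 at 2.43 (SE 0.24) and Aurkb, its kinase, at 2.17 (SE 0.40). Of 10 other network and centromere genes Cenpl alone rose (1.94, SE 0.34), and Mis18a (1.15, SE 0.23) was among the genes for CENP-A deposition that rose. No gene of these lists was called lower in limma's test, and 1 had an unadjusted p under 0.05 in that direction.

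Genes of these lists also rose in S against neither cells, where 4.77% of all tested genes were called higher. Of the 13 outer kinetochore genes 9 rose, with Ndc80 at 3.16 (SE 0.28), and of the 12 checkpoint and corona genes 9 rose, with Bub1b at 3.78 (SE 0.26) and Zwilch, of the complex that brings dynein to kinetochores, at 3.35 (SE 0.37). All 4 chromosomal passenger genes rose, led by Aurkb at 4.49 (SE 0.40), and so did all 4 CENP-A deposition genes, led by Oip5 (3.41, SE 0.39). Of the 10 other network genes 4 rose: Apitd1, which encodes CENP-S (3.23, SE 0.34), Mlf1ip, which encodes CENP-U (1.94, SE 0.38), Cenpw (1.78, SE 0.37) and Stra13 (0.76, SE 0.16). The medians of the 5 lists ran between 0.82 for the other network genes and 2.28 for the passenger complex, against 0.02 for all genes. In G2/M against neither cells 39 of the 43 genes rose.

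Cells differed widely in how many of the 10 genes they held at 1 TPM or more. The median was 8 in the 100 G2/M cells, 3 in the 128 S cells and 1 in the 139 neither cells. All 10 were found together in 15 cells, 12 of them in the G2/M class, and none of the 10 in 61 cells, of which 0 were G2/M, 15 S and 46 neither cells. The mean number of the 7 network genes per cell was 2.97 and 2.45 in the HFD sets, against 2.12 and 2.40 in the control sets. In cells that held Cenpk, 69.9% also held Cenph (mean of 4 sets), against 20.2% of cells without Cenpk, and for Cenpi the shares were 41.9% and 6.79%. For Cenpa they were 61.6% and 34.5%, and for Cenpq 45.5% and 16.8%. Every other member was held more often in cells with Cenpk. Their levels also followed the number of genes detected in a cell, and members per cell differed by class. Shares for genes outside the members were not counted, so these shares are a description.

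Across the 367 cells, after each set's mean was removed, Cenpa, Cenpe and Cenpf were the most alike, with Pearson correlations of log2(TPM + 1) of 0.63 to 0.72. The 6 pairs among Cenph, Cenpi, Cenpk and Cenpm lay between 0.37 and 0.47, and the 21 pairs of a network gene with Cenpa, Cenpe or Cenpf between 0.13 and 0.48. Cenpk was closest to Cenph (0.47) and least close to Cenpq (0.24). Cenpq was the least connected gene, with 0.13 to 0.24 in its 9 pairs. Points share their libraries, and each gene's value also followed the number of genes detected in the cell, with 0.47 for Cenpk and 0.23 for Cenpq, so these correlations are a description.

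**Figure D5:**
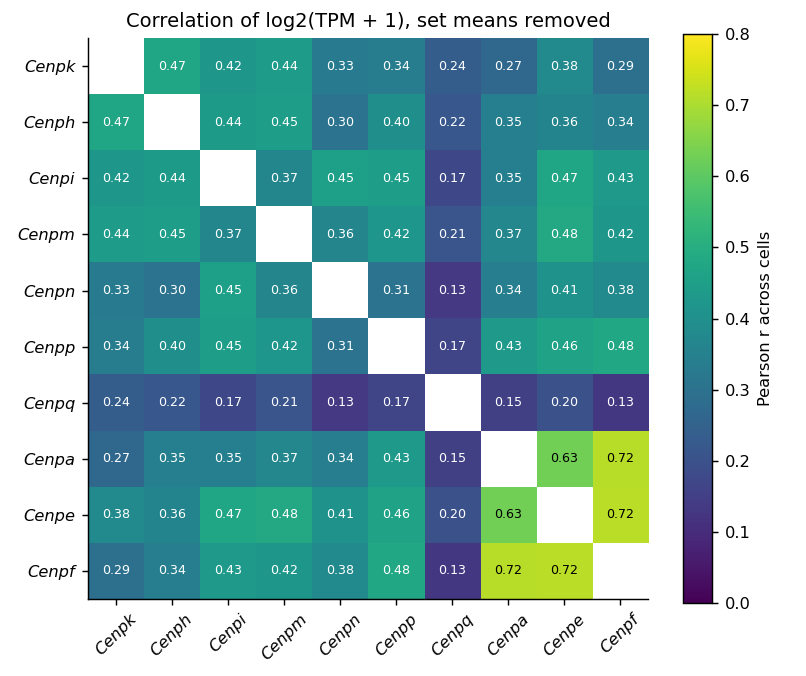
Pearson correlation of log2(TPM + 1) between pairs of the 10 genes across 367 cells, with set means removed (colour scale from 0 to 0.8, value in each square). The square of Cenpa, Cenpe and Cenpf holds 0.63 to 0.72, and the Cenpq row holds 0.13 to 0.24.

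Cenpk followed the S phase score (0.53) and the G2/M score (0.50) about equally, whereas Cenpa (-0.06 and 0.77) and Cenpf (-0.08 and 0.80) followed the G2/M score alone. Among the 9677 genes other than Cenpk with at least 1 TPM on average and found in 20% of cells, those most like Cenpk were Rrm2 (0.60), Top2a (0.60), Ncapg2 (0.58), Smc2 (0.58) and Tk1 (0.57), where the median over all of these genes was 0.06 and the 99th percentile 0.42. Cenph was most like Top2a (0.59), Pbk (0.59) and 2810417H13Rik (0.59), and Cenpm like 2810417H13Rik (0.56), Pbk (0.55) and Ccna2 (0.54). Cenpi (0.64) and Cenpn (0.55) were most like Aurkb, and Cenpp most like Ccna2 (0.60). Cenpa (0.81) and Cenpf (0.79) were most like Ccnb2, and Cenpe most like Nusap1 (0.73). Cenpq reached no more than 0.28, with Ncaph.

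The positions of the genes, from GENCODE M21 on GRCm38 (mm10), matter where a neighbour shares transcribed bases, because reads without strand cannot be told apart there. Cenpk (chr13:104228611-104252392, plus strand) shares 233 exonic bases with Ppwd1, which starts head to head with it on the minus strand, out of 5231 exonic bases of Cenpk. Ppwd1 had 7.52 and 10.6 TPM in the HFD sets, against 6.15 and 6.11 TPM in the control sets, a log2 difference of 0.48 (SE 0.35) that was not called. Cenpq (chr17:40923051-40935047, minus strand) shares 95 exonic bases with Mut, which had 20.2 and 23.4 TPM in the HFD sets and 16.0 and 20.9 TPM in the control sets. Cenpp (chr13:49464023-49652785, minus strand) shares 315 exonic bases with Ippk, which had 20.8 and 16.2 TPM in the HFD sets and 12.7 and 10.6 TPM in the control sets, and 7 with Aspn, which stayed below 1 TPM in each set.

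The span of Cenpp also holds Ecm2, Omd and Ogn, of which Omd averaged 7.43 and 9.84 TPM in the HFD sets and 8.84 and 8.33 TPM in the control sets without shared exonic bases. Cenph (chr13:100759674-100775899, minus strand), Cenpi (chrX:134308084-134362639, plus strand), Cenpm (chr15:82233779-82244748, minus strand) and Cenpn (chr8:116921730-116941507, plus strand) share no exonic base with another gene. Cmc2 lies 274 bases from Cenpn and had 15.1 and 15.2 TPM in the HFD sets, against 5.85 and 10.7 TPM in the control sets (log2 difference 0.85, SE 0.34, not called). Nol8 lies 292 bases from Cenpp and had 10.7 and 9.88 TPM in the HFD sets, against 6.44 and 5.07 TPM in the control sets (0.75, SE 0.35, not called). Cenpa (chr5:30666777-30674830, plus strand), Cenpe (chr3:135212537-135273611, plus strand) and Cenpf (chr1:189640606-189688086, minus strand) also stand free of shared exonic bases.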

How the data were processed

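The deposited values are TPM per gene and cell, made by the authors with Bowtie2 and RSEM on mm10, per the submitters' processing notes; their versions and the annotation were not given in the sources used here. A cell needed 2000 genes above 0 TPM, which 367 of 375 had, and no doublet caller was run because cells were sorted into wells. TPM was averaged per set, or per set and class, and log2(mean TPM + 1) of genes averaging 1 TPM or more was fitted with limma 3.58.1 (mean-variance trend, two-sided, Benjamini-Hochberg, 0.05). This scale understates changes of low genes. The fit was also run on simulated means with 200 changed genes. These had the same noise in every gene and no differences between sets, so they check the code and not the calls given here. The class fit used set as a block and left the score genes out. Members, lists and classes were chosen with earlier results of these data known. The text names all members, up to 4 genes of a list with the smallest p, and the genes most correlated with a member. Promoters came from RefSeq (GRCm38.p6), which held all 10 genes. Alternatives varied the pseudocount (0.1), scaling, cell and gene filters, class rules, the block and the sets used. The values of 1 gene of these lists are not reported here.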

Additional observations from a re-analysis of the deposited data

Results flagged for a closer look

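Of 30 groups of 4 set means (10 genes in 3 classes), 3 held a set farther from the rest than Dixon's 95% critical value allows; chance alone flags about 1 group in 20, and all 3 lie in the neither class, where levels are low. Cenpf in HFD 1 averaged 5.94 TPM, against 2.02 TPM in HFD 2, 1.38 TPM in control 1 and 2.01 TPM in control 2. Cenpq in HFD 1 averaged 1.47 TPM, against 5.61 TPM in HFD 2, 6.36 TPM in control 1 and 5.89 TPM in control 2. Cenpi averaged 0 TPM in both HFD sets, against 1.26 TPM in control 1, where 1 of 43 cells held it, and 0.09 TPM in control 2.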

How the results depend on the processing

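Of 360 class differences of the 10 genes under alternatives, 342 kept their direction and call, 9 called ones were no longer called (6 of Cenpp, 3 of Cenpm), 6 became called, all with cell-wise logs (Cenpi, Cenpm and Cenpn in G2/M against S, Cenpp and Cenpq in S against neither, Cenpq in G2/M against neither), and 3 uncalled ones near 0 changed sign: in G2/M against S cells Cenpq was 0.0045 with cell-wise logs and lay between -0.42 and 0.0032 without 1 set (the highest without HFD 2), and Cenpk lay between -0.018 and 0.27 (the lowest without control 2). Between diets 59 genes were called, 6 with Rn45s left out, 23 without cells holding Paneth or goblet markers, 0 with no filter on low genes (1398 at an unadjusted limma p under 0.05), 38 with classes weighted equally and 81 to 148 without 1 set. Cenpk's call was also lost with cell-wise logs (1.29) and no filter on low genes (1.5). With a replicate block 635 were called; set numbers are shared only in name, with a correlation of 0.23 between the sets' deviations over 2 pairs, and same-numbered sets are not known to be paired. In G2/M against S cells 404 genes were called, 817 with cell-wise logs, 262 without Paneth- or goblet-marker cells, 125 with no filter on low genes, 173 with no replicate block and 130 to 216 without 1 set. In S against neither cells 671 were called, 1885, 376 and 322 with cell-wise logs, no filter and no replicate block, and 337 to 405 without 1 set. In G2/M against neither cells 1203 were called, 3150, 749 and 548 in those fits, and 740 to 821 without 1 set. The causes were not tested. The network minus mitotic contrast (0.32) lay between 0.13 and 0.51 without 1 set. Unknown depth limits what a value of 0 TPM shows.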
